A study of Mus musculus with 4 samples.

Results

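The 30 protein-coding adhesion G protein-coupled receptor genes of the mouse were examined in 4TO7 breast carcinoma cells from tumors resistant to immunotherapy and from control tumors. The genes are those whose symbol begins with Adgr, together with Celsr1, Celsr2 and Celsr3, taken by name from a table of 55385 genes. They lie on 13 chromosomes. Adhesion GPCRs join a long extracellular part, often built of adhesion modules, to a membrane-spanning part that signals through G proteins. Most are cut by themselves at a site next to the membrane, and the exposed stretch behind the cut can act as a tethered agonist. They are known for roles in cell polarity, myelination, blood vessel growth, synapse formation and immune cells.

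RNA was sequenced in bulk from 2 libraries of resistant tumors (called resistant 1 and resistant 2) and from 2 libraries of control tumors (control 1 and control 2). All tumors were of 4TO7 cells, a mouse mammary carcinoma line, in the strain Balb/c. The treatment label of all 4 samples reads untreated, whereas their treatment protocol names anti-PD-L1, an antibody against the checkpoint ligand PD-L1, in vivo. What the control tumors received is thus not settled by the labels. Tumors were digested with enzymes and the cells were kept in medium before RNA extraction; no age, genotype or time is given. The series calls the libraries biological replicates and does not say from how many animals they came, so p-values measure the spread between these libraries.

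Each library held 45666470 to 49592054 counted reads. Values are normalized counts, that is, reads divided by 1 size factor per library, and log2 fold changes are resistant minus control ± SE. The mean over the libraries reached 10 normalized counts in 14238 genes, and limma passed 1432 of them at an adjusted p under 0.05 (Benjamini-Hochberg over all of them), or 10.1%, of which 5.32% of the tested genes were higher and 4.73% lower in resistant libraries. The labelled cell type was checked against markers. Vimentin (Vim, 129420 and 143370 normalized counts in resistant, 155220 and 124790 in control libraries) and the simple keratins Krt8 and Krt18 were abundant, whereas Krt5 and Krt14 of basal epithelium had no read. Of 8 carcinoma and epithelial genes 6 were tested, Krt19 rose (log2 fold change 2.97) and Epcam fell (log2 fold change -1.53). Of the leukocyte markers, Ptprc (CD45) had at most 2.15 normalized counts in any library, and Cd8a, Nkg7, Gzmb, Klrb1c, Ms4a1, C1qa, C1qc, S100a9 and Cxcr2 had no read. From the same lists, Cd68 rose, with 10566 and 9975 normalized counts in resistant and 3227 and 6349 in control libraries, Cd14 fell, with 689 and 798 in resistant and 1709 and 1158 in control libraries, and S100a8, given with Adgrg3, did not pass. None of 10 lymphocyte genes reached the mean of 10, and their sum was 7.13 and 9.65 normalized counts in resistant and 4.80 and 5.04 in control libraries. The 4 adipocyte genes summed to 51.0 and 64.4 in resistant and 38.4 and 12.1 in control libraries, and the 1 tested, Fabp4, did not pass. In bulk RNA, fewer cells of a type and less RNA per cell cannot be told apart.

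Resistant cells had more transcript of Adgra2, Adgrg6 and Adgrg3 and less of Adgrl3, Celsr1 and Adgrl2 than control cells. The changes ran from a 10.3-fold higher mean for Adgra2 to a 7.34-fold lower mean for Adgrl3. Adgrg1, the most abundant receptor per exon length, had nearly the same mean in both groups. Of the 30 receptors, 17 reached the mean of 10 and were tested, and 6 of these passed, 3 higher and 3 lower, beside 10.1% of all tested genes. The other 11 tested receptors did not pass. How many passed depended on which library was left out, for these receptors and for all tested genes alike. Of the 6, Adgra2, Adgrl3 and Celsr1 passed in every alternative run described at the end, and Adgrg6, Adgrg3 and Adgrl2 did not. The filter can let a gene in through the group in which it is high, so these counts describe the tested receptors only. Their median log2 fold change was -0.05, against 0.00 for all tested genes, with 8 values above 0 and 9 below. In 10 of the 17 the groups did not overlap, 5 in each direction, which is close to the background: over all tested genes the groups did not overlap in 56.7%, with 28.4% higher and 28.3% lower in resistant libraries.

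**Figure D1:**
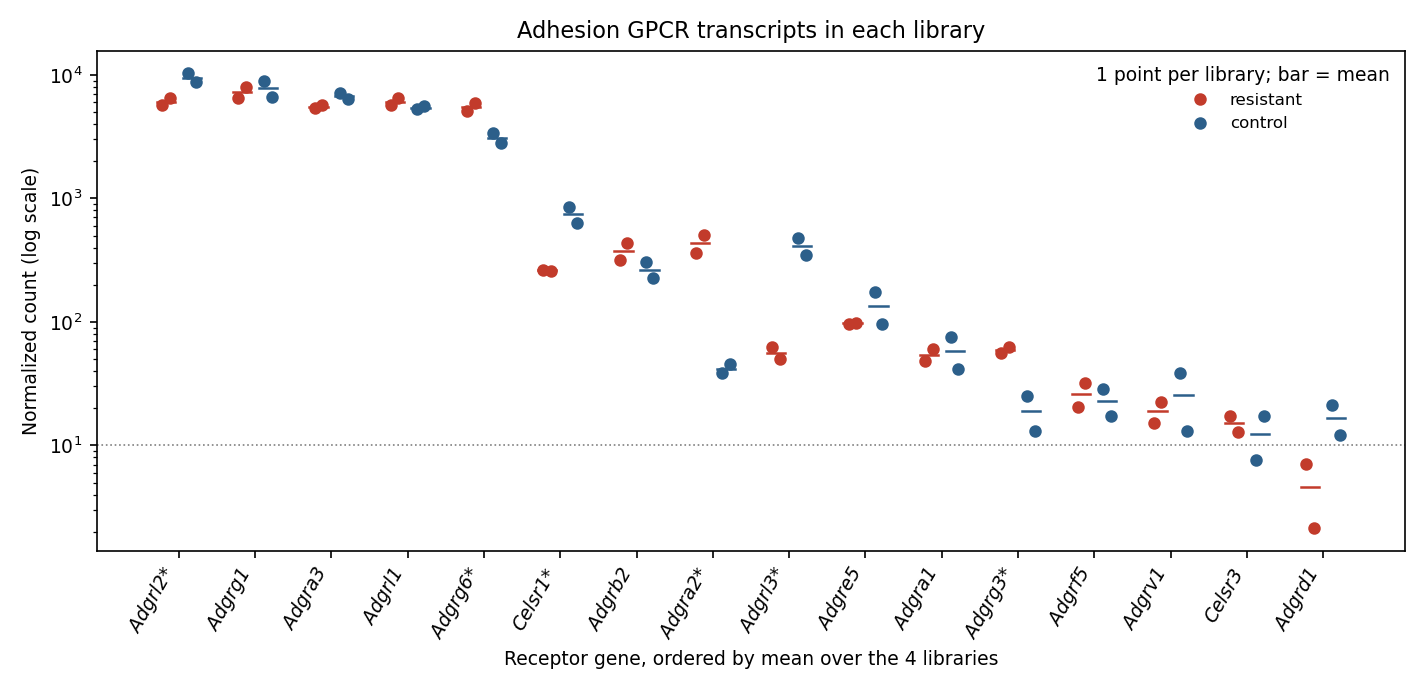
Normalized counts (log axis) of 16 tested receptors, with 1 point per library, resistant in red left of control in blue, bars at the group means, a dotted line at 10 and an asterisk on receptors with an adjusted p under 0.05. Adgra2 lies at 361 and 503 in resistant libraries and at 38.4 and 45.4 in control libraries, and Adgrl3 shows the opposite order.

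Read per length, 5 receptors made up most of the family's transcripts. Adgrg1, Adgra3, Adgrl1, Adgrl2 and Adgrg6 together held 94.5% and 94.1% of the family's TPM (a level per merged exon length that sums to the same total in each library) in resistant libraries, and 94.6% and 95.3% in control libraries. The family's summed level was 277 and 319 TPM in resistant libraries and 346 and 304 TPM in control libraries, and these ranges overlap. Adgrg1 led in both groups, with a level of 104 TPM in resistant and 116 TPM in control cells. Behind it, with merged exons as length, Adgrl1 and Adgra3 were at 55.2 and 53.1 TPM in resistant cells. Adgrl2 had a level of 33.4 TPM in resistant cells and of 53.9 TPM in control cells. Its place depends on the length used: its mean over the libraries was 43.7 TPM with merged exons, below the 53.2 TPM of Adgrl1, and 78.3 TPM with the longest transcript, above the 42.7 TPM of Adgrl1. Adgra2 held 1.77% and 2.12% of the family's TPM in resistant libraries and 0.152% and 0.214% in control libraries, and its place among the tested receptors was 6 in resistant cells and 11 in control cells.

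The Adgra group holds Adgra2, also called Gpr124, a coreceptor that with the membrane-anchored protein Reck lets cells respond to Wnt7a and Wnt7b during growth of brain vessels. Adgra2 (ENSMUSG00000031486.15, chromosome 8, 27085583 to 27123436, GRCm38) had 361 and 503 normalized counts in resistant libraries, against 38.4 and 45.4 in control libraries. Both resistant libraries lay far above both controls. The means were 432 ± 101 in resistant and 41.9 ± 4.92 in control cells (SD, n = 2 each). The log2 fold change of 3.32 ± 0.25 passed in limma (adjusted p = 0.000575) and was the 20th largest rise of the 14238 tested genes. It was 3.56 and 3.08 without resistant 1 and 2, and 3.20 and 3.44 without control 1 and 2, and the call held each time.

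Adgra3 (Gpr125), a relative linked to planar cell polarity, had 5382 and 5676 normalized counts in resistant and 7132 and 6340 in control libraries. The resistant libraries were lower and the groups did not overlap, but the log2 fold change of -0.28 ± 0.11 did not pass (limma adjusted p = 0.152). Adgra1 had 47.9 and 60.1 normalized counts in resistant and 74.9 and 41.4 in control libraries, which overlapped (-0.05 ± 0.35).

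Adgra2 is best known from endothelial cells and pericytes, so markers of both were read beside it. Of 10 endothelial genes, 4 were tested and 1 rose, beside 5.32% higher over all tested genes. This was Vwf, with 153 and 211 normalized counts in resistant and 46.1 and 22.2 in control libraries. The endothelial genes Cdh5 and Kdr had at most 1.92 and 1.01 normalized counts in any library, and Cldn5 had no read. Pecam1 had 13.2 and 12.9 normalized counts in resistant and 21.1 and 15.1 in control libraries and did not pass. Tie1 had 31.6 and 38.6 in resistant and 56.7 and 30.3 in control libraries and did not pass either. The summed endothelial level was 569 and 703 normalized counts in resistant and 578 and 446 in control libraries, much of it Egfl7. Of 10 fibroblast and mural genes, 8 were tested, 3 rose (Mcam, 1.82 ± 0.18; Des, 2.08 ± 0.27; Pdgfrb, 1.00 ± 0.20) and 1 fell (Dcn, -1.99 ± 0.24), beside 10.1% past the threshold in either direction over all tested genes. Their sum, mostly Pdgfra, was 11383 and 13858 normalized counts in resistant and 11046 and 7630 in control libraries. Of the other mural genes, Rgs5 overlapped and did not pass (-0.05 ± 0.26). Acta2 had 38.7 and 62.2 normalized counts in resistant and 10.6 and 33.3 in control libraries. It was higher without overlap and did not pass (1.33 ± 0.54, limma adjusted p = 0.169). Cspg4 had at most 8.58 normalized counts and Lum at most 1.92. The part of such cells in the Adgra2 values was not tested.

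Of the partners of Adgra2 named above, Wnt7b and Reck were present. Wnt7b had 9346 and 11371 normalized counts in resistant libraries, against 7287 and 4397 in control libraries. Both resistant values were higher, but limma placed the difference just outside the threshold (0.86 ± 0.22, adjusted p = 0.0527). The log2 fold change of Wnt7b was 1.01 and 0.72 without resistant 1 and 2, and 1.23 and 0.50 without control 1 and 2. Wnt7a had no read in any library. Reck had 1377 and 1702 normalized counts in resistant and 1788 and 1329 in control libraries and overlapped (-0.01 ± 0.18). Of 12 genes of the Wnt7 signalling unit and common Wnt targets, 9 were tested, 2 rose and none fell, beside 5.32% higher and 4.73% lower over all tested genes, and the median log2 fold change was 0.14 against 0.00. The 2 were the Wnt receptor Fzd4 and Axin2, a feedback inhibitor and common target of beta-catenin. Axin2 was scarce, with 48.9 and 76.2 normalized counts in resistant and 17.3 and 12.1 in control libraries (2.00 ± 0.38, adjusted p = 0.0189). Fzd4 had 950 and 874 in resistant and 569 and 571 in control libraries (0.68 ± 0.14, adjusted p = 0.0238). Both calls ended without resistant 1 and also without resistant 2. The Wnt effector beta-catenin, Ctnnb1, with the highest level in the list, did not pass (0.46 ± 0.15, adjusted p = 0.095). From the same list, Apcdd1 overlapped and did not pass (0.14 ± 0.13), and Lef1 and Nkd1 had at most 4.29 and 1.07 normalized counts.

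**Figure D2:**
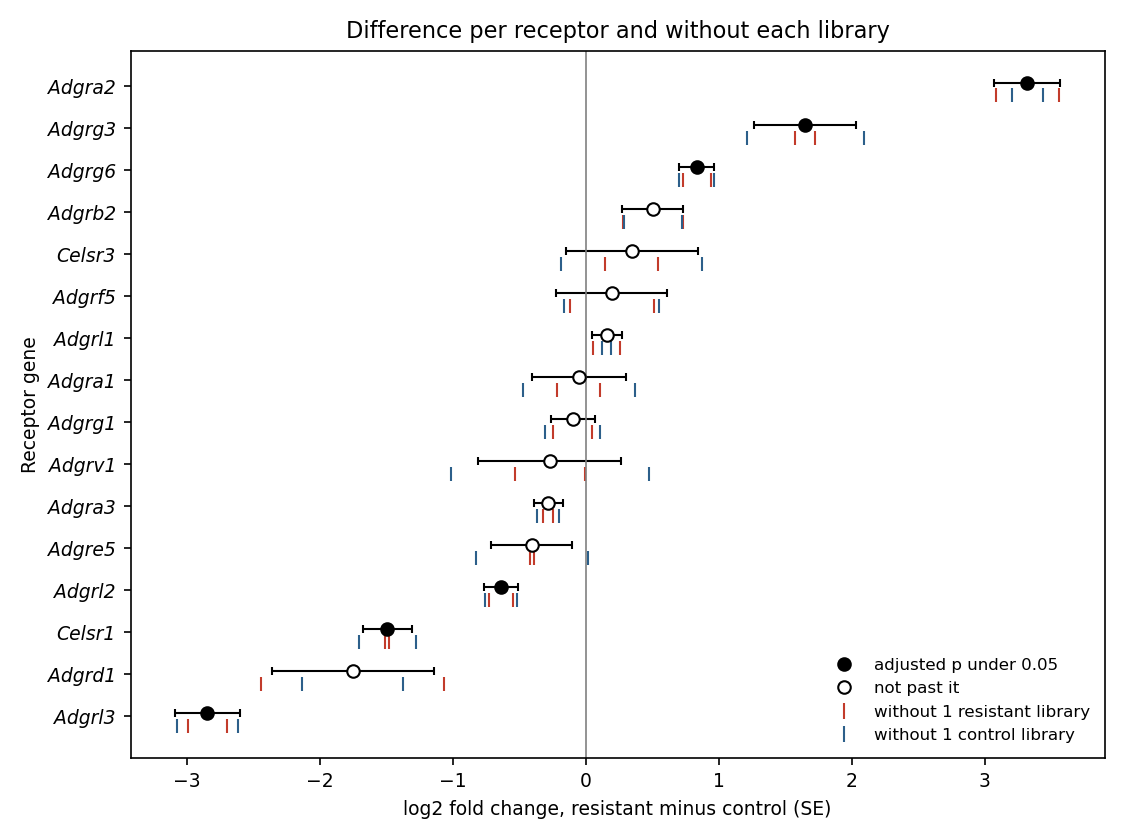
log2 fold changes (resistant minus control, x axis) of 16 tested receptors, with SE bars, filled points for an adjusted p under 0.05 and ticks for the value without each resistant (red) or control (blue) library. The ticks of the 6 filled receptors stay on the side of 0 of their point, and those of Adgrl3 run from -3.07 to -2.61.

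The Adgrg group held both strongly expressed and silent receptors: of 7 members 4 were tested, 2 rose and none fell, beside 5.32% higher and 4.73% lower over all tested genes. Adgrg6, or Gpr126, couples to cyclic AMP and is required for Schwann cells to myelinate. It (ENSMUSG00000039116.7, chromosome 10, 14402583 to 14545659) had 5104 and 5901 normalized counts in resistant libraries, against 3369 and 2815 in control libraries. The resistant pair was above the control pair without overlap. The means were 5503 ± 564 in resistant and 3092 ± 392 in control cells (SD, n = 2 each), and the log2 fold change of 0.83 ± 0.13 passed (limma adjusted p = 0.00986). The call ended without resistant 2 (0.73, adjusted p = 0.0837). The Schwann cell marker Sox10 had at most 3.22 normalized counts in any library.

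Adgrg1 and Adgrg3 lie close together on chromosome 8 and differed in level. Adgrg1, or Gpr56, binds collagen III and tissue transglutaminase and acts in cortex formation and myelination. It (ENSMUSG00000031785.16, 94974751 to 95014217) had 6516 and 7977 normalized counts in resistant and 8896 and 6677 in control libraries. The groups overlapped and the difference did not pass (-0.10 ± 0.16, adjusted p = 0.754). Adgrg3, or Gpr97, is known from granulocytes. It (ENSMUSG00000060470.7, 95017692 to 95045250) had 56.0 and 62.2 normalized counts in resistant libraries, against 25.0 and 13.1 in control libraries, a log2 fold change of 1.65 ± 0.38 (limma adjusted p = 0.0375). Both resistant libraries were higher at this low level, and the call ended without either of them (1.72, adjusted p = 0.186 without resistant 1; 1.58, adjusted p = 0.24 without resistant 2). Of 5 neutrophil genes only S100a8 was tested, at 394 and 393 normalized counts in resistant and 800 and 421 in control libraries, and it did not pass. Ly6g and Csf3r had at most 1.02 normalized counts, and S100a9 and Cxcr2 had no read. Adgrg2 had at most 2.15 normalized counts, and Adgrg4 and Adgrg7 had no read.

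The sequence before the start of Adgrg3 is shown because this receptor rose and its window holds no GENCODE exon of the gene. It is the 250 bases before the RefSeq start, read 5′ to 3′ on the plus strand of GRCm38.p6, at chr8:95017442-95017691. Capitals mark the GC box GGGCGG or its reverse complement CCGCCC, a match of letters and not a measured site.
Adgrg3: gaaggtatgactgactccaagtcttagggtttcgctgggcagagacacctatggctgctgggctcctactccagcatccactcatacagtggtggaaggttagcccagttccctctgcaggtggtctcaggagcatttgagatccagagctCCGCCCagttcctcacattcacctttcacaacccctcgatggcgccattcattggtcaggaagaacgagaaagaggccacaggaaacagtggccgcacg
The window held 1 GC box and no TATAAA on either strand. Over 32851 RefSeq windows of this length, 32.7% held a GC box and 12.4% held TATAAA. The Adgrg3 window held 7 CpG dinucleotides, beside a median of 6 over all windows. RefSeq gave 26 windows for 22 of the 30 receptors, by symbol. The 17 windows of 13 tested receptors had a median of 15 CpG, and the 9 windows of 9 receptors under the mean of 10 had a median of 3. Of the 26 windows, 5 held more than 30 bases of a GENCODE exon of the same gene, so they may lie behind another start.

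Receptors of the Adgrl group, the latrophilins, bind teneurins and FLRT proteins on neighbouring cells and are known from synapses. Of 4 members 3 were tested and 2 fell, beside 4.73% lower over all tested genes. Adgrl3 (ENSMUSG00000037605.16, chromosome 5, 81020138 to 81825133) had 62.2 and 50.4 normalized counts in resistant libraries, against 478 and 348 in control libraries. Both resistant libraries were far below both controls. The means were 56.3 ± 8.31 in resistant and 413 ± 92.2 in control cells (SD, n = 2 each), and the log2 fold change was -2.84 ± 0.24 (limma adjusted p = 0.000815). The value lay between -3.07 and -2.61 when any library was left out, and the call held each time. Among the 14238 genes it was the 58th largest fall. An antisense gene, Gm16054, overlaps 8.91% of the Adgrl3 exon bases and had no read.

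Adgrl2 (ENSMUSG00000028184.12, chromosome 3, 148815583 to 148990555) was far more abundant, with 5697 and 6470 normalized counts in resistant and 10261 and 8692 in control libraries. The groups did not overlap, and the log2 fold change of -0.64 ± 0.13 passed (limma adjusted p = 0.0218). This call ended when resistant 1 (-0.55, adjusted p = 0.209) or resistant 2 (-0.73, adjusted p = 0.0798) was left out. Adgrl1 had 5657 and 6497 normalized counts in resistant and 5304 and 5573 in control libraries, without overlap but short of the threshold (0.16 ± 0.11, adjusted p = 0.425). Exons of Gm10644 on the opposite strand cover 12.9% of the Adgrl1 exon bases, and no source used here states if reads were assigned by strand. Adgrl4, an endothelial member, had at most 2.04 normalized counts in any library.

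Several known ligands of latrophilins had few reads. Tenm1, Tenm2 and Tenm3 had at most 3.22 normalized counts and Flrt2 at most 1.07. Flrt1 had 44.8 and 22.5 in resistant and 29.8 and 79.7 in control libraries, which overlapped. Tenm4 had 600 and 683 normalized counts in resistant and 750 and 997 in control libraries, and Flrt3 had 2627 and 3028 in resistant and 4758 and 3300 in control libraries. Both genes were lower without overlap in resistant libraries, and neither passed (-0.43 ± 0.18, adjusted p = 0.168 for Tenm4; -0.49 ± 0.18, adjusted p = 0.13 for Flrt3).

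Celsr proteins are the vertebrate relatives of the fly polarity protein Flamingo and hold neighbouring cells together in planar cell polarity. Celsr1 (ENSMUSG00000016028.10, chromosome 15, 85898929 to 86033777) had 265 and 260 normalized counts in resistant libraries, against 857 and 636 in control libraries. The resistant pair was narrow and lay below both controls. The means were 262 ± 3.81 in resistant and 747 ± 156 in control cells (SD, n = 2 each), and the log2 fold change of -1.49 ± 0.19 passed (limma adjusted p = 0.00383). It was -1.50 and -1.48 without resistant 1 and 2 and -1.28 and -1.70 without control 1 and 2, and the call held each time. Celsr3, which guides axons, had 17.3 and 12.9 normalized counts in resistant and 7.69 and 17.1 in control libraries and overlapped (0.34 ± 0.50). Celsr2 had a mean of 5.64 normalized counts, with 7.13 and 7.51 in resistant and 2.88 and 5.04 in control libraries. It was the nearest receptor below that limit, and Adgrd1, with a mean of 10.6, was the nearest above it.

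Of 19 other genes of planar cell polarity 12 were tested and 0 passed in limma, beside 10.1% over all tested genes, and the median was -0.01 against 0.00. An unadjusted p under 0.05 was found for 5 of them, and limma voom on the recovered reads passed 1. The count of 0 changed when either control library was left out, as did the count over all tested genes. The core polarity proteins Vangl1 and Vangl2 were lower by small amounts without overlap; the log2 fold change was -0.29 ± 0.10 for Vangl1 (adjusted p = 0.128) and -0.28 ± 0.12 for Vangl2 (adjusted p = 0.177). Prickle1, which binds Vangl proteins inside the cell, had 805 and 788 normalized counts in resistant and 282 and 535 in control libraries and did not pass (1.03 ± 0.28, adjusted p = 0.058). Ror2, Wnt5a and Ankrd6 had no read.

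The remaining groups gave no call. Adgrb2, a brain-specific angiogenesis inhibitor family member, had 318 and 433 normalized counts in resistant and 304 and 225 in control libraries. Its groups did not overlap, and its log2 fold change of 0.50 ± 0.23 did not pass (adjusted p = 0.212). Adgrb1, the engulfment receptor, had at most 5.04 normalized counts in any library, and Adgrb3 had no read. Adgre5, or CD97, a leukocyte receptor that binds CD55, had 96.8 and 98.7 normalized counts in resistant and 174 and 96.8 in control libraries, with a value of -0.41 ± 0.31. Exons of the abundant gene Ddx39 on the opposite strand cover 23.8% of the Adgre5 exon bases, so its count is uncertain. Adgre1, which encodes the macrophage antigen F4/80, had 1 read in control 2 and none elsewhere, and Adgre4 had at most 4.03 normalized counts. Of 12 macrophage and monocyte genes 3 were tested, 1 rose and 1 fell, beside 5.32% higher and 4.73% lower over all tested genes. The lysosomal protein gene Cd68 rose (1.18 ± 0.27), Cd14 fell (-0.92 ± 0.20) and Cd163 did not pass. The list's sum was 11296 and 10830 normalized counts in resistant and 4979 and 7536 in control libraries, mostly Cd68, while Csf1r had at most 8.07.

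Adgrd1, or Gpr133, was the lowest tested receptor. It had 7.13 and 2.15 normalized counts in resistant and 21.1 and 12.1 in control libraries, and was lower without overlap but did not pass (-1.75 ± 0.61, adjusted p = 0.117). Adgrf5, a regulator of lung surfactant, had 20.4 and 32.2 in resistant and 28.8 and 17.1 in control libraries and overlapped (0.20 ± 0.42). Adgrv1, the very large receptor of hair cell links, had 15.3 and 22.5 in resistant and 38.4 and 13.1 in control libraries and overlapped as well (-0.27 ± 0.54). Adgrf1 had 0 and 1 read in resistant libraries, against 10 and 5 reads in control libraries. Adgrf2, Adgrf3 and Adgrf4 had at most 3.03, 4.03 and 5.76 normalized counts. In all, 13 receptors stayed under the mean of 10. Of these, 10 had from 1 to 22 reads over the 4 libraries, and Adgrb3, Adgrg4 and Adgrg7 had 0, which allows up to 3 reads per library by counting error.

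Genes that bind these receptors or carry their signals were read from lists, as shown in the plot of partner lists. Of 27 ligands and binding partners 13 were tested, 1 rose and 2 fell, beside 5.32% and 4.73% over all tested genes, and the median was -0.29 against 0.00. Fndc4, a secreted factor reported to bind Adgrf5, had 707 and 802 normalized counts in resistant and 259 and 226 in control libraries. This rise of 1.63 ± 0.17 (limma adjusted p = 0.00153) held without each library. Col4a1, a chain of collagen IV, which binds Adgrg6, had 23173 and 25640 in resistant and 31957 and 36866 in control libraries. Its fall of 0.49 on the log2 scale was at the edge of the threshold (adjusted p = 0.0496) and ended without either resistant library. Rtn4r, the Nogo receptor and a reported partner of Adgrb1, had 112 and 123 in resistant and 226 and 205 in control libraries (-0.86 ± 0.20, adjusted p = 0.0385), a call that also ended without either resistant library. The Adgrg1 ligands differed in presence: Tgm2, tissue transglutaminase, had 34434 and 39000 in resistant and 34935 and 31464 in control libraries and did not pass, whereas Col3a1 had at most 1.02 in resistant libraries and 13.1 in control 2 alone. The laminin chain gene Lamb1 had the highest level of the list and did not pass (-0.29 ± 0.14). Cd55, the ligand of Adgre5, C1ql1, C1ql2, C1ql3 and Sftpd had no read.

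**Figure D3:**
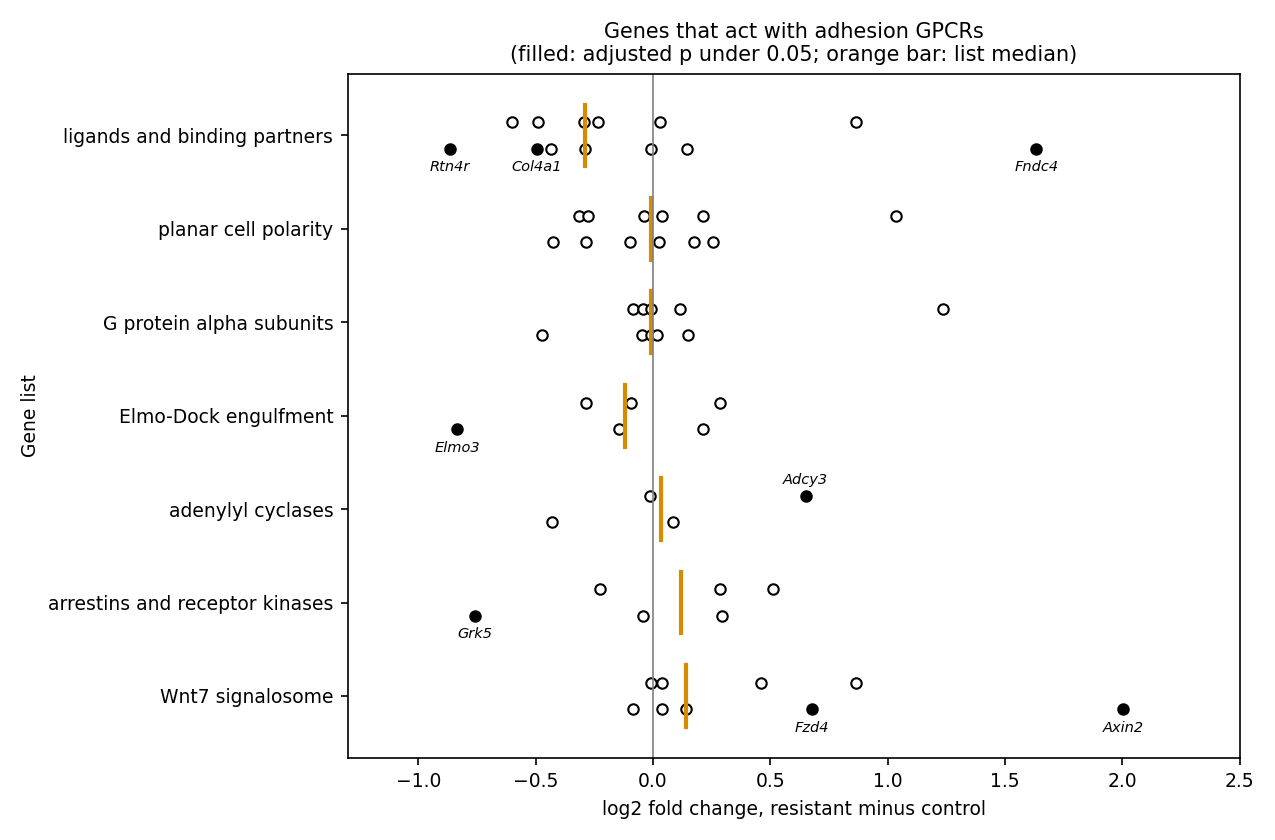
log2 fold changes (resistant minus control, x axis) of the tested genes in 7 lists of partners and signalling genes, with 1 point per gene, filled for an adjusted p under 0.05, and an orange bar at the list median. Fndc4 at 1.63 and Axin2 at 2.00 are the filled points farthest to the right, and Rtn4r at -0.86 is the farthest to the left.

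Signalling genes inside the cell were read from 4 lists, beside 10.1% past the threshold over all tested genes. Of 13 G protein alpha subunit genes 10 were tested and 0 passed in limma (2 at an unadjusted p under 0.05, 0 by voom), with a median of -0.01. This count of 0 changed when either control library was left out, as did the count over all tested genes. Gnas, the subunit that raises cyclic AMP, had 66255 and 70166 normalized counts in resistant and 70793 and 69770 in control libraries. Gna15 had the widest difference of them, at 27.5 and 23.6 in resistant and 11.5 and 9.08 in control libraries, and did not pass (1.24 ± 0.39, adjusted p = 0.0927; named after its values were seen). Of 7 engulfment genes of the Elmo and Dock families, which act behind Adgrb1, 6 were tested and 1 fell: Elmo3 had 594 and 576 in resistant and 1101 and 990 in control libraries (-0.83 ± 0.14, adjusted p = 0.0112). Of 9 adenylyl cyclases 4 were tested and 1 rose, Adcy3, with 1558 and 1707 in resistant and 1152 and 936 in control libraries (0.65 ± 0.14, adjusted p = 0.0319). Of 7 arrestins and receptor kinases 6 were tested and 1 fell, Grk5, with 417 and 489 in resistant and 865 and 675 in control libraries (-0.76 ± 0.18, adjusted p = 0.038). The medians of these 3 lists were -0.12, 0.04 and 0.12. Without resistant 1, and also without resistant 2, each of these 3 calls ended.

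Position in the genome was compared by reading the tested genes within 1 Mb of each receptor. Adgra2 had 11 such neighbours with a median log2 fold change of 0.10, ranging from -0.26 to 0.42, and 1 of them rose. The 16 neighbours of Celsr1 had a median of 0.12, the lowest at -1.32. The 40 neighbours of Adgrg3 had a median of -0.05 and none of them passed, against 10.1% over all tested genes. The 8 neighbours of Adgrg6 had a median of 0.19, and 1 rose. Adgrl2, Adgrl3 and Adgra3 had no tested neighbour within that distance. Exons of Brf2 on the opposite strand cover 1.26% of the Adgra2 exon bases, and Brf2 had 632 and 662 normalized counts in resistant and 657 and 636 in control libraries.

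**Figure D4:**
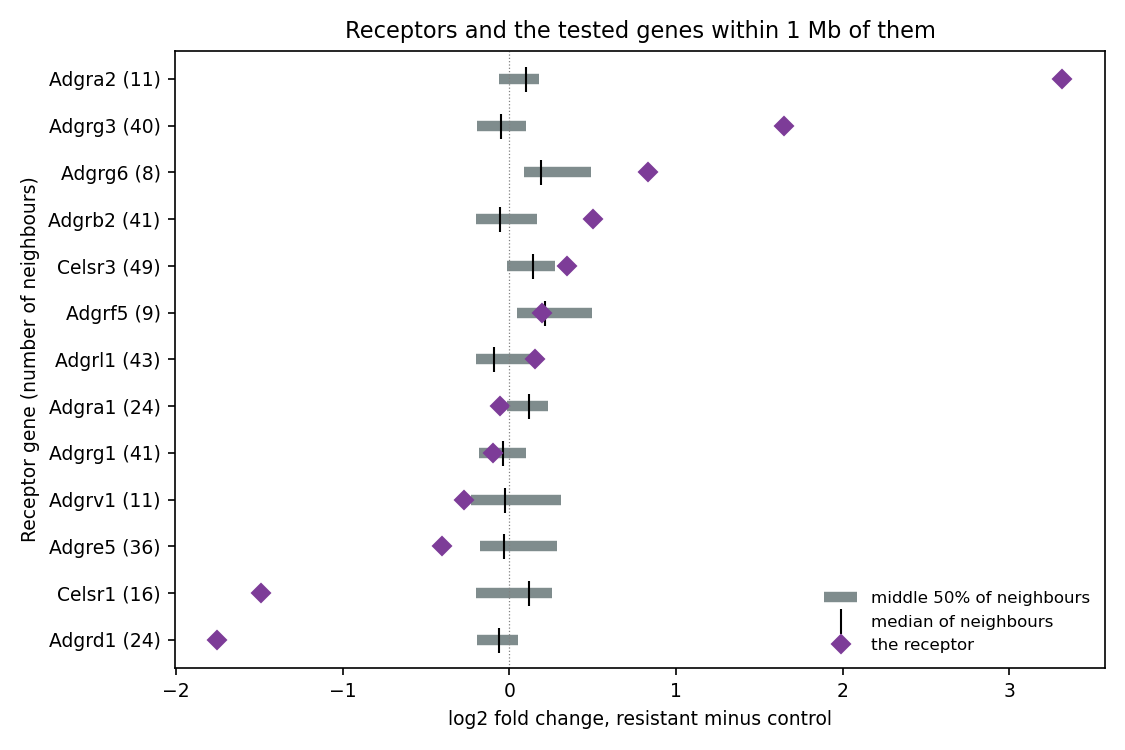
log2 fold changes (resistant minus control, x axis) of 13 tested receptors (diamonds) beside the median (tick) and middle 50% (bar) of the tested genes within 1 Mb, whose number is in brackets. The diamond of Adgra2 at 3.32 lies to the right of its neighbours' highest value of 0.42, and that of Celsr1 at -1.49 lies to the left of its neighbours' lowest value of -1.32.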

How the data were processed

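Bulk RNA-seq of 2 resistant and 2 control libraries was used. The deposited table holds log2 values, made with STAR, DESeq2 and mm10 per the submitters' processing notes; versions, settings, annotation and strand use are not given in the sources used here. Raising 2 to each deposited value and subtracting 1 gives a whole multiple of 1 step per library for 100% of genes (tolerance 0.01 reads), so these are log2 of a normalized count plus 1, and dividing by the step gave reads. Depth was 46999812 and 45666470 reads in resistant and 49592054 and 46179416 in control libraries. PCR reads are not independent molecules, so the floor of 3 reads covers only counting error.

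Symbols were joined on the Ensembl identifier without version for 55144 of 55385 genes. Types, coordinates and merged exon lengths are from GENCODE M21 (GRCm38, that is, mm10). A mean of 10 normalized counts was required for testing. The fit used limma 3.58.1 under R 4.3.3 (eBayes with a trend, no block), two-sided, on the deposited values, which carry a pseudocount of 1, so fold changes of low genes are understated. The plan had taken unlogged normalized values, which this transform equals. The receptors and lists were chosen with earlier results of these data known, so no p is adjusted over a list. The tested receptors are named, except 1 that is counted but not reported here, and from each list the genes past the threshold (up to 4), up to 2 or 3 with the highest mean and, for markers, those without reads. Other list genes named, such as Tenm4, Flrt1, Flrt3, Reck, Wnt7b, Prickle1, Gna15, Cdh5 and Csf1r, were chosen after their values were seen. The script was tested on simulated data. The numbers of the replicates only name samples.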

Additional observations from a re-analysis of the deposited data

How the results depend on the processing

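Adgra2, Adgrl3 and Celsr1 passed under every alternative run: pseudocounts of 0.5 and 5, no filter or a mean of 50, equal totals, median centring, limma voom, robust or untrended moderation, the replicate block and leaving out each library. No receptor past the threshold changed its sign in these fits, whereas several of the others did when 1 library was left out, such as Celsr3, Adgrf5 and Adgrv1. 6 receptors passed; 3 passed (1 higher) with no filter and 3 (1 higher) without a trend, where Adgrg6, Adgrg3 and Adgrl2 ended. With 1 library left out, 3 to 11 passed (1 to 4 higher, 2 to 7 lower), 3 without resistant 2 and 11 without control 2. In such fits the lone library is assumed to vary like the other group. The median of the tested receptors was then -0.30 to 0.11, so its sign is not settled.

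Calls in the partner lists with 1 library left out ranged from 1 to 7 for ligands (main 3), 0 to 4 for planar cell polarity (0), 0 to 1 for alpha subunits (0), 0 to 2 for the engulfment, cyclase and arrestin lists (1 each) and 0 to 4 for the Wnt7 list (2). With no filter they were 1 for ligands and 0 for the engulfment, cyclase, arrestin and Wnt7 lists. Without a trend they were 0 for the cyclase and arrestin lists and 1 for alpha subunits and for Wnt7. At a mean of 50 the Wnt7 list had 1, since Axin2 is not tested there. Planar cell polarity had 1 with voom and 1 with the replicate block. The causes were not tested. Over all genes, 126 rose and 185 fell with no filter, and 266 rose and 357 fell without a trend. Without resistant 1 or 2, 202 and 146 rose and 234 and 268 fell, and without control 1 or 2, 1804 and 2074 rose and 1399 and 1993 fell. Equal totals moved the median of all genes to -0.04 (log2), and 657 rose and 799 fell.

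The replicate block left 6 receptors past the threshold (3 higher, 3 lower) and 628 and 585 genes higher and lower overall; it ended Col4a1, Rtn4r and Fzd4 and passed Wnt7b (adjusted p = 0.0028). Deviations of samples with the same number correlated at -0.36. With the numbers crossed, an alternative chosen after seeing the data, 9 receptors passed (5 lower). Over all 14238 tested genes, 2402 rose and 2182 fell in that fit. From the lists, 8 ligands, 5 polarity genes, 2 alpha subunits, 3 engulfment genes, 2 cyclases, 4 arrestins and kinases and 4 Wnt7 genes passed. With the longest transcript as length, 4 receptors changed place in the order of levels.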
